A study of Mus musculus with 20 samples.

Results

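RNA from mouse brain was mixed with iron regulatory protein 1 (IRP1), and what an antibody against IRP1 then pulled down was compared with a control pull-down in which the protein had been left out. The members are the 4 brain arrays of 20 in the series, 2 labelled as IRP1 immunoprecipitations and 2 as controls, and all 45037 probe sets of the Affymetrix mouse array that are not controls of the manufacturer. The brain RNA was a pool from 6 C57BL6/J mice of both sexes, aged 8 to 10 weeks and kept on an iron-normal diet. Both groups received 50 µg of this total RNA and a rabbit polyclonal anti-IRP1 antibody, and only the IRP1 group received recombinant IRP1 carrying a histidine tag and made in E. coli. Recovered RNA (120 ng) was amplified in a two-cycle procedure before labelling. The other 16 arrays were used to set brain against them and, in the fit, to estimate the spread behind the brain calls. They came from bone marrow of iron-normal mice and from duodenum, liver and spleen of mice on an iron-poor diet for 21 days. Diet thus goes with tissue for 3 of the 4 other tissues. The reaction was made in a tube with purified RNA and added protein, so it measures binding to IRP1 outside the cell. The labels do not say if replicates 1 and 2 share 1 pool of RNA, and no array holds a single animal, so the p-values describe the spread between these arrays and not between mice.

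IRP1 is a cytosolic protein that, when iron is scarce, binds a hairpin in certain mRNAs called the iron-responsive element (IRE). An IRE in the 5′ untranslated region, as in the ferritin mRNAs, lets IRP1 block translation, and IREs in the 3′ region of the transferrin receptor mRNA let it protect that mRNA from decay. In brain, this system sets how neurons and glia take up, store and export iron, which they need for myelin, neurotransmitter synthesis and respiration.

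Values are log2 signals per probe set, and a change is the mean of the IRP1 arrays minus the mean of the controls. A probe set was called when its limma p-value, adjusted over all 45037 probe sets by Benjamini and Hochberg's method, was below 0.05. In brain 39 probe sets (0.0866%) were called higher with IRP1 and 17 (0.0377%) lower. The higher ones comprised 34 probe sets of 28 single genes, 2 shared by Ftl1 and a pseudogene and 3 without a gene name, and the lower ones 12 single genes and 5 without a name. Rises were the larger changes, with a median of 2.20 (range 0.92 to 3.90) against -1.14 (range -1.73 to -0.84) for the falls and -0.02 over all probe sets. Of the rises 35 reached 2-fold, 25 reached 4-fold and 9 reached 8-fold, and of the falls 13 reached 2-fold and 0 reached 4-fold. The calls borrow the spread of all 20 arrays. A fit on the 4 brain arrays alone called 0 probe sets in either direction (smallest adjusted p = 0.115 by limma), with 718 higher and 932 lower at an unadjusted p under 0.05, against 1042 (2.31%) and 1915 (4.25%) in the fit on all arrays. The higher count was 25 without control array 1, and the lower count was 11 without control array 1, 118 without IRP1 array 2 and 105 without control array 2.

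**Figure D1:**
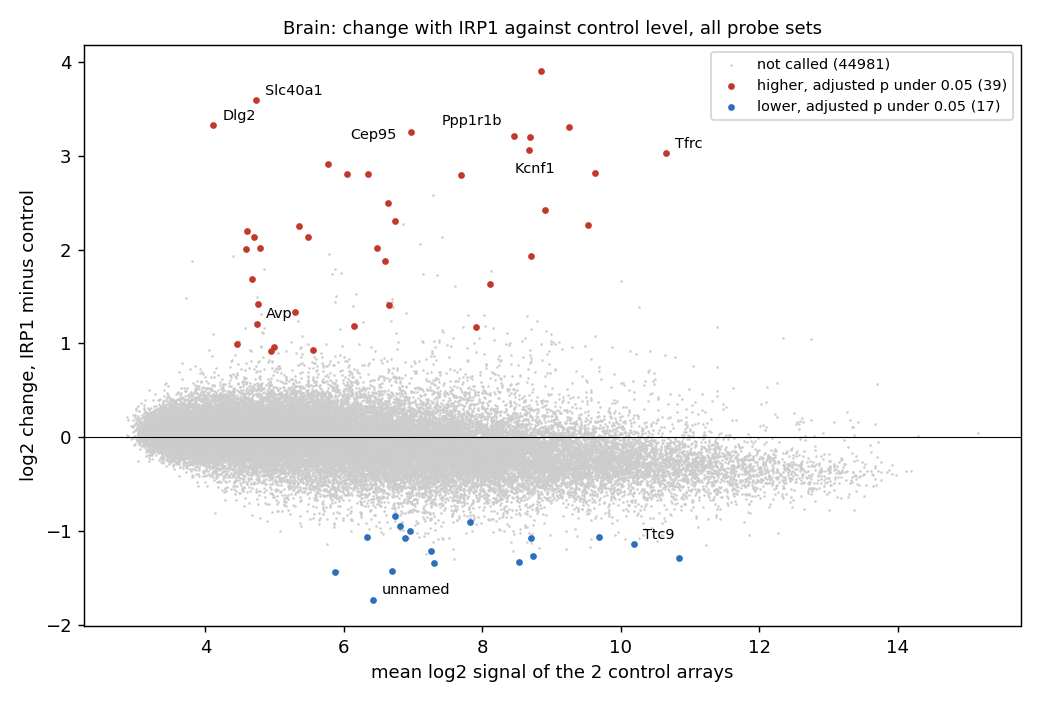
Mean log2 signal of the 2 brain control arrays (x axis) against the log2 change with IRP1 (y axis) for all 45037 probe sets, with calls at adjusted p under 0.05 in red (39 higher) and blue (17 lower). The rises lie up to 3.90 above 0 at control levels from 4.12 to 10.65, the falls lie between -0.84 and -1.73, and the grey cloud slopes down at bright levels.

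The arrays carried brain RNA. The mean signal of 9 general neuron markers lay between 10.74 and 11.27 on the 4 brain arrays and between 4.82 and 5.44 on the others, and that of 10 oligodendrocyte markers between 9.66 and 10.34 against 5.33 to 5.57. Pituitary hormone genes differed between the replicate numbers and not between reactions: prolactin (Prl) read 9.99 and 10.67 on IRP1 and control array 1, and 4.70 and 4.92 on IRP1 and control array 2, and the mean of 4 pituitary genes was 8.23, 8.68, 5.50 and 5.37 in the same order. Albumin (Alb) likewise read 10.31 and 10.95 against 7.93 and 7.54. In bulk RNA, fewer cells of a type and less RNA per cell cannot be told apart. All 39 rises and 17 falls kept their direction within each replicate number, since their IRP1 and control arrays did not overlap; among all probe sets both IRP1 arrays lay above both controls in 16.7% and below both in 16.9%. IRP1 array 1 had the narrowest distribution (standard deviation 1.98, against 2.10 to 2.16 on the others), and added poly-A control RNAs averaged 7.88 on control array 1 against 6.32 to 6.78 on the other 3. The part of these array differences in the results below was not tested beyond leaving out each array and fitting these levels as covariates.

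The largest rises included established IRE mRNAs. The light chain of ferritin, the iron storage protein, is read by 3 probe sets that Ftl1 shares with a pseudogene. On 1418364_a_at the IRP1 arrays read 11.96 and 13.56 and the controls 8.70 and 9.01. This was the largest change in brain (log2 3.90, SE 0.44, adjusted p = 0.00045). The second shared probe set, 1422302_s_at, read 11.86 and 13.25 against 8.82 and 9.69 (log2 3.30, SE 0.41, adjusted p = 0.00126). On the third, 1422301_at, which is also assigned to microRNA genes, the change was 1.06 and was not called (adjusted p = 0.178), although the IRP1 arrays (8.85 and 9.17) again lay above the controls (7.60 and 8.31).

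Slc40a1 encodes ferroportin, which exports iron from cells. Its probe set 1448566_at read 8.04 and 8.62 with IRP1 and 4.86 and 4.61 in the controls, a 12.1-fold rise (log2 3.59, SE 0.30, adjusted p = 3.82e-05). The brighter probe set 1417061_at read 10.13 and 10.83 against 7.82 and 7.56 (log2 2.79, SE 0.27, adjusted p = 9.03e-05). Both probe sets thus separated the reactions by more than 2 log2 units. Alas2, the erythroid form of the first enzyme of heme synthesis, read 9.33 and 8.36 against 5.92 and 6.16 (6.97-fold, log2 2.80, SE 0.39, adjusted p = 0.00419). Its call was lost without IRP1 array 1 or without control array 1, where the change was 2.31 and 2.68. Of the red cell markers only 2 were measured, and neither was called. Slc4a1, the anion exchanger of the red cell membrane, read 5.72 and 5.41 against 5.41 and 5.20 (log2 0.26, adjusted p = 0.896), and Hba-a1, an alpha globin, read 3.78 on both IRP1 arrays against 3.85 and 4.09 (log2 -0.19, adjusted p = 0.886).

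Epas1 encodes hypoxia-inducible factor 2 alpha. Its dimmer probe set 1449888_at read 7.76 and 7.45 against 5.47 and 5.23 (4.77-fold, log2 2.26, SE 0.26, adjusted p = 0.000592), while the bright 1435436_at read 12.60 and 12.55 against 11.76 and 11.03 (log2 1.18, adjusted p = 0.459). Neither probe set overlapped between reactions. Fth1, the ferritin heavy chain, was not called: 1448771_a_at read 13.51 and 14.10 against 12.71 and 12.80 (log2 1.05, adjusted p = 0.298), and 1427021_s_at 14.04 and 14.50 against 13.60 and 13.80 (log2 0.57, adjusted p = 0.72). Its controls lay near the top of the array's scale. Taking each gene's brightest probe set, 4 of the 6 genes listed for a 5′ IRE were measured by a probe set of 1 gene, 2 were called higher (Alas2 and Slc40a1), all 4 separated the reactions and the median change was 1.99. Over all 18193 genes, 0.0824% were called higher, 15.7% lay above both controls and the median was -0.04.

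Tfrc, the receptor through which cells take up transferrin-bound iron, had 2 of its 3 probe sets called. Probe set 1452661_at read 13.36 and 13.98 against 10.46 and 10.84 (8.15-fold, log2 3.03, SE 0.28, adjusted p = 5.77e-05). Probe set 1422966_a_at read 8.23 and 9.14 against 5.90 and 5.64 (7.55-fold, log2 2.92, SE 0.28, adjusted p = 7.50e-05). Both separated the reactions widely. The dim 1422967_a_at, at 4.44 and 4.57 against 3.70 and 3.86, was not called (log2 0.72, adjusted p = 0.29).

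Slc11a2, the divalent metal transporter DMT1, is made with and without an IRE in its 3′ end, and its 4 probe sets differed. Probe set 1426441_at read 8.24 and 8.76 against 6.39 and 6.58 (4.05-fold, log2 2.02, SE 0.25, adjusted p = 0.00117). Probe sets 1452078_a_at and 1441709_at lay above both controls without a call (log2 1.38 and 1.12, adjusted p = 0.178 and 0.125). Probe set 1417584_at overlapped, at 7.59 and 7.64 against 7.48 and 7.98 (log2 -0.11, adjusted p = 0.975). Which transcript form each probe set reads was not tested. Of the other genes with a reported 3′ IRE, Hao1, a liver peroxisomal oxidase, read 5.94 and 5.45 against 3.77 and 3.86 (log2 1.88, adjusted p = 0.476; log2 0.69 with a floor at log2 5) and was not called. Cdc42bpa, a kinase of the cytoskeleton, and Cdc14a, a phosphatase of the cell cycle, overlapped between reactions with changes of 0.29 and 0.07. In this list of 5 genes, taken by their brightest probe sets, 1 was called higher (Tfrc), 2 lay above both controls and the median change was 0.29. Slc11a2 was counted there by 1417584_at and not by its called probe set 1426441_at.

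**Figure D2:**
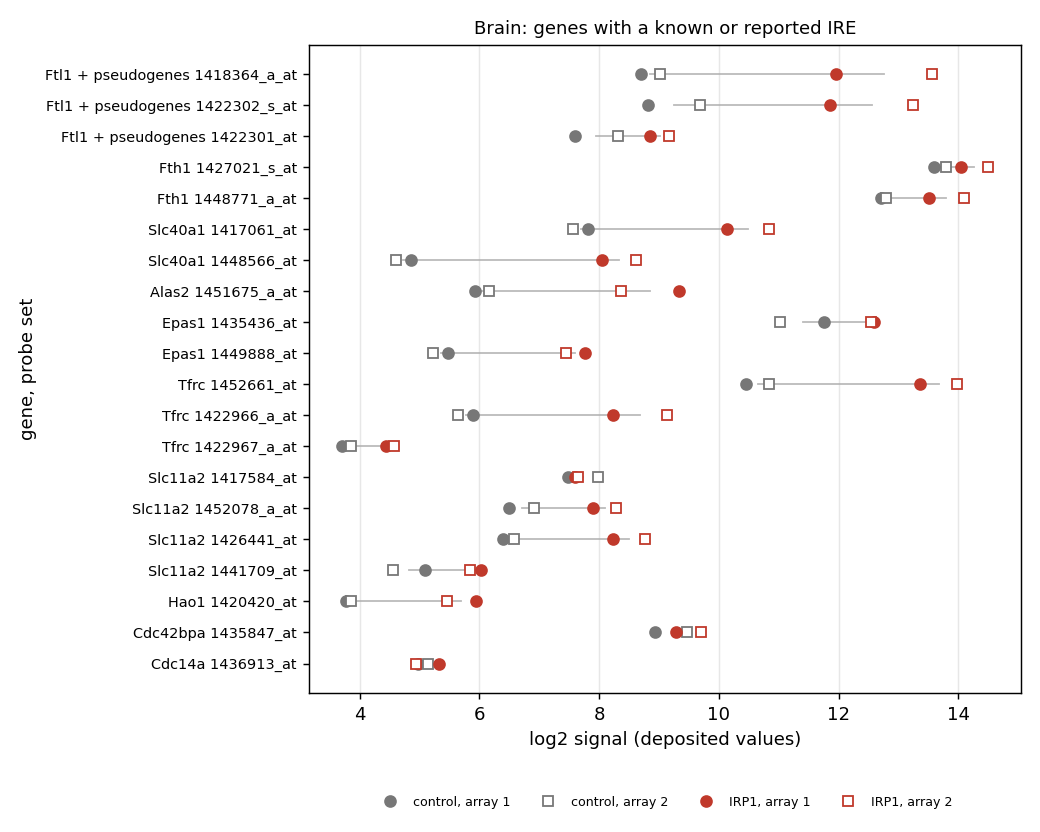
Log2 signal (x axis) of genes with an established or reported IRE on the 2 control arrays (grey) and the 2 IRP1 arrays (red), by probe set (y axis), with filled circles for array 1, open squares for array 2 and a line joining the means. Ftl1, Slc40a1, Alas2, Tfrc and 1449888_at of Epas1 show wide gaps, and Fth1 lies at 12.71 or above in every array.

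Genes for which an IRE has been proposed were not called. The 5 measured were App and Prnp (the amyloid and prion precursors), Sdhb and Ndufs1 (respiratory chain subunits) and Bdh2 (an enzyme of siderophore synthesis), and their changes ran from -0.70 to 0.04. Neither were mRNAs of the iron regulatory proteins and their regulators. Aco1, the gene of IRP1 itself, read 8.00 and 7.98 against 8.59 and 8.25 (log2 -0.43, adjusted p = 0.824), and Ireb2, the gene of IRP2, 7.90 and 8.16 against 8.23 and 8.45 (log2 -0.31, adjusted p = 0.87). Among 22 measured genes of iron handling without a known IRE, 0 were called, 2 (9.09%) lay above both controls and 5 (22.7%) below, against 15.7% and 16.2% of all genes, and the median change was -0.06. Among 9 genes of brain iron accumulation diseases 0 were called (changes -0.32 to 0.48), and among 7 other genes of heme synthesis 0 (median -0.25), so Alas2 was the only called gene of that pathway. The 15 genes of the citric acid cycle ran from -0.64 to -0.03 with 0 calls.

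The rises also included genes outside the IRE lists. Dlg2 encodes PSD-93, a scaffold of the postsynaptic density. Its probe set 1421199_at read 7.04 and 7.84 with IRP1 and 4.03 and 4.20 in the controls (10.0-fold, log2 3.33, SE 0.38, adjusted p = 0.000504). These controls were dim, at the 19.3 percentile of all probe sets, so the fold depends on the floor of the scale: with signals floored at log2 5 the change was 2.44 (adjusted p = 0.000577). The other 2 Dlg2 probe sets also lay above both controls, by 0.64 and 0.79, without a call. Ppp1r1b encodes DARPP-32, the phosphatase inhibitor of dopamine-receptive striatal neurons. It read 11.17 and 12.17 against 8.47 and 8.45 (9.25-fold, log2 3.21, SE 0.27, adjusted p = 3.82e-05). Other markers of these neurons were not called, with Tac1 at 0.43, Pde10a at -0.43 and Penk at -0.40, and the median of 7 measured was -0.08.

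Kcnf1, a modulatory subunit of voltage-gated potassium channels, read 11.19 and 12.28 against 8.61 and 8.74 (8.36-fold, log2 3.06, SE 0.27, adjusted p = 5.52e-05). A second Kcnf1 probe set stood at -0.01. Of 84 potassium channel genes Kcnf1 was the only one called by its brightest probe set, 13 (15.5%) lay above and 22 (26.2%) below both controls, against 15.7% and 16.2% of all genes, and the median was -0.04. Avp encodes the hormone vasopressin, made in hypothalamic neurons. It read 6.06 and 5.86 against 4.74 and 4.75 (2.31-fold, log2 1.21, SE 0.15, adjusted p = 0.00126), a small rise in which replicate arrays lay within 0.20 of each other, unlike the pituitary hormones above. Shisal1, a membrane protein of the shisa-like type, read 9.04 and 9.12 against 7.70 and 8.12 (log2 1.17, adjusted p = 0.0233). Shisal1's second probe set stood at -0.01.

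Lpar1, a receptor for the signalling lipid lysophosphatidic acid, was the only gene outside the IRE lists with 3 probe sets that were all called. They read 11.63 and 12.15 against 8.70 and 8.68 (1417143_at, 9.18-fold, log2 3.20, SE 0.24, adjusted p = 1.76e-05), 11.95 and 12.95 against 9.61 and 9.66 (1448606_at, log2 2.82), and 6.11 and 7.57 against 4.57 and 4.84 (1426110_a_at, log2 2.14, adjusted p = 0.0233). Each separated the reactions. The other 4 measured receptors of this lipid ran from -0.16 to 0.21 and were not called. Egr2, a zinc-finger transcription factor, had both of its probe sets called: 1427683_at read 9.46 and 8.85 against 6.86 and 5.83 (log2 2.81, SE 0.39, adjusted p = 0.00449) and 1427682_a_at changed by 2.31 (adjusted p = 0.0357). Among 16 immediate early genes it was the only one called, with Nr4a3 at 0.66, Egr4 at 0.50 and Arc at -0.58, and the median was -0.20.

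Cep95, a centrosomal protein, read 9.93 and 10.53 against 7.30 and 6.65 (9.57-fold, log2 3.26, SE 0.49, adjusted p = 0.00804). Of its 3 probe sets, 1 was called and the lowest stood at 0.08. Fxyd5, a regulator of the sodium pump, read 9.23 and 9.05 against 6.71 and 6.58 (5.64-fold, log2 2.50, SE 0.35, adjusted p = 0.00449). Lrpap1, a chaperone of receptors of the LDL receptor family, had 2 of 4 probe sets called; 1452148_at read 10.83 and 11.83 against 9.05 and 8.76 (log2 2.43, SE 0.37, adjusted p = 0.00886), 1426697_a_at changed by 2.26, and the lowest of the other pair stood at -0.18. Lnx1, a ubiquitin ligase that acts on Numb, read 7.03 and 6.59 against 4.65 and 4.57 (4.60-fold, log2 2.20, SE 0.20, adjusted p = 5.77e-05). A brighter Lnx1 probe set, 1455825_s_at, lay above both controls by 0.99 (adjusted p = 0.155).

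Smaller rises followed. Ralgapa1, a subunit of the complex that switches off Ral GTPases, read 7.02 and 6.57 against 4.89 and 4.68 (log2 2.01, SE 0.23, adjusted p = 0.000592), and 6 of its 8 probe sets lay above both controls. Arfip2, which binds Arf and Rac GTPases, read 10.20 and 11.07 against 8.70 and 8.71 (log2 1.93, adjusted p = 0.0196). A second Arfip2 probe set, 1424240_at, overlapped at 8.17 and 9.14 against 8.20 and 8.18 (log2 0.46) and was not called. Ssbp3, a DNA-binding cofactor of LIM-domain factors, read 7.11 and 8.12 against 5.42 and 5.54 (log2 2.13, adjusted p = 0.00832). On the called probe sets of these 3 genes the lowest IRP1 array stood over 1 log2 unit above the highest control.

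Ankrd29, a protein of ankyrin repeats, read 7.96 and 8.99 against 6.94 and 6.24 (log2 1.88, adjusted p = 0.00752), and its second probe set also lay above both controls, by 1.73. Rcan3, a regulator of the phosphatase calcineurin, read 9.76 and 9.72 against 8.00 and 8.22 (log2 1.63, adjusted p = 0.0357), while its second probe set stood at -0.07. Kantr, a long noncoding RNA, rose by 1.41 on 1438576_x_at (adjusted p = 0.0136), a type of probe set prone to cross-hybridization, and its other 3 probe sets ran from -0.46 to -0.18. The uncharacterized gene 1700001G11Rik rose by 1.34 (adjusted p = 0.0437). Below 2-fold, the calls were Lzic, a leucine zipper protein (0.99, or 0.45 with a floor at log2 5), Ano8, of the anoctamin family (0.96), Ccdc177 (0.94) and Thsd7b, of the thrombospondin repeat type (0.92), and the unnamed probe sets 1447494_at, 1447422_at and 1457102_at rose by 2.01, 1.69 and 1.42.

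**Figure D3:**
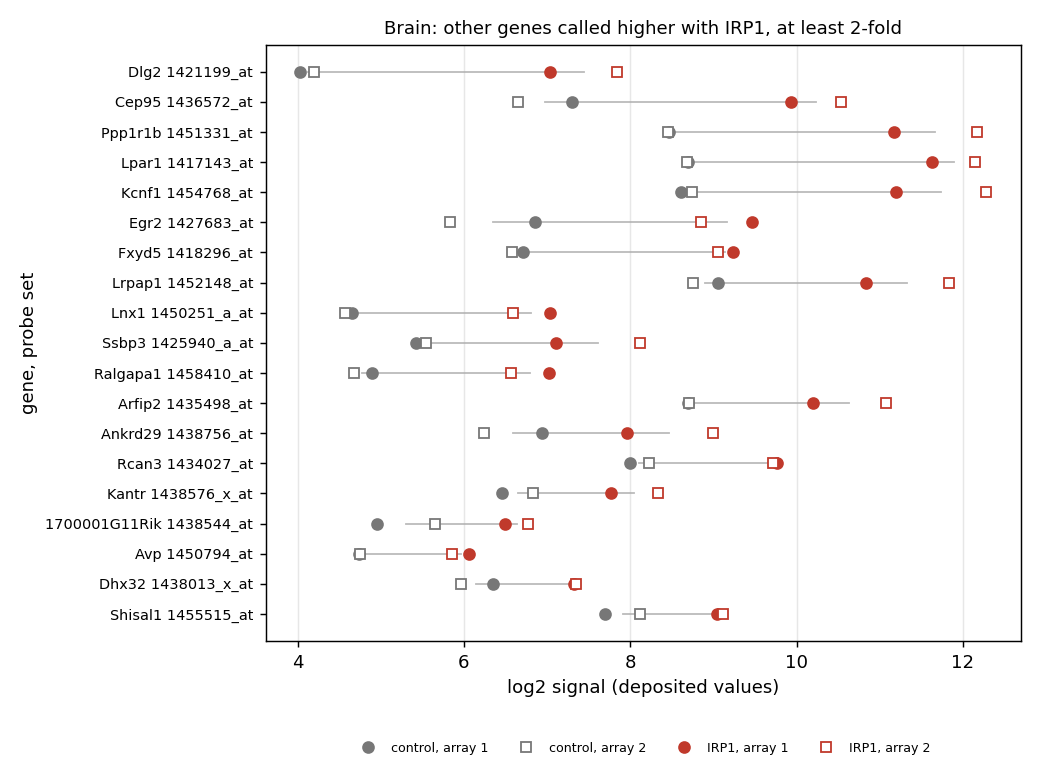
Log2 signal (x axis) of the genes outside the IRE lists called higher by at least 2-fold in brain, on 2 control arrays (grey) and 2 IRP1 arrays (red), drawn as for the IRE genes. In every gene both IRP1 arrays lie to the right of both controls, from Dlg2 with a change of 3.33 down to Shisal1 with 1.17.

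Different probe sets of a gene often disagreed. Of the 28 genes called higher 22 had more than 1 probe set; in 3 of these all were called, in 17 only 1 was, and in 10 all lay above both controls. Of the 39 rises 19 kept their call wherever they were tested under 10 alternative settings (those other than the fit on the brain arrays alone), and without each brain array. They were both shared Ftl1 probe sets, both of Slc40a1, 2 each of Tfrc and Lpar1, and 1447494_at. Dlg2, Cep95, Ppp1r1b, Kcnf1, Lrpap1, Epas1, Lnx1, Slc11a2, Ralgapa1 and Avp had 1 each. Avp kept its call in 9 of the settings, since a filter on dim probe sets removed it untested. The calls of Rcan3, Dhx32 and Ano8 were lost without each of the 4 brain arrays in turn. Fxyd5 lost its call without IRP1 array 1, Ankrd29 without control array 2, and Ssbp3, Kantr, Ccdc177 and the probe sets 1452148_at of Lrpap1 and 1426110_a_at of Lpar1 without control array 1 or IRP1 array 2. Both Egr2 probe sets lost their calls without IRP1 array 1, and 1427682_a_at also without control array 2 and with a floor at log2 5. Arfip2, Shisal1, 1700001G11Rik, Lzic and Thsd7b each lost theirs in 3 of the 4 fits that left out 1 brain array.

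A further 82 probe sets of single genes changed at least 2-fold without overlap and were not called, 50 upward and 32 downward. This count leaves out uncalled probe sets of genes that had a call of at least 2-fold on another probe set. Among all probe sets 0.240% were at least 2-fold higher without overlap and 0.120% lower, calls included. Ormdl1, a regulator of sphingolipid synthesis, had the largest such value, 8.96 and 10.77 against 7.54 and 7.03 (log2 2.58, adjusted p = 0.124). Apba3, an adaptor protein, read 8.39 and 9.88 against 7.05 and 6.67 (log2 2.28, adjusted p = 0.0569). Pacs1, a trafficking adaptor, stood at 2.13, Cdh6, a cadherin, at 2.06 and Slc18a2, the vesicular monoamine transporter, at 1.93. The IRP1 arrays of Ormdl1 differed from each other by more than its controls did. Among 7 monoamine neuron markers 0 were called, and apart from Slc18a2 the values included Tph2 at 0.37, Dbh at 0.26 and Ddc at -0.16.

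The 17 falls were smaller than most rises. Stmn2, a microtubule regulator of growing axons, read 5.42 and 6.49 with IRP1 and 7.40 and 7.20 in the controls (2.54-fold lower, log2 -1.34, SE 0.25, adjusted p = 0.044), while its other probe set stood at -0.04. Rab15, a GTPase of endocytic recycling, read 9.52 and 9.59 against 11.02 and 10.67 (2.44-fold lower, log2 -1.29, SE 0.22, adjusted p = 0.0216). Snhg11, a noncoding host gene of a small nucleolar RNA, read 7.18 and 7.76 against 8.40 and 9.08 (log2 -1.27, adjusted p = 0.0346). In each of these the IRP1 arrays lay below both controls.

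Srcin1, an adaptor that restrains Src kinase, read 8.54 and 8.70 against 9.76 and 9.61 (2.09-fold lower, log2 -1.06, SE 0.15, adjusted p = 0.00449), with a second probe set at 0.00. Cldn11, the claudin of myelin tight junctions, read 7.76 and 7.48 against 8.62 and 8.78 (2.11-fold lower, log2 -1.08, SE 0.15, adjusted p = 0.00438). It was the only call among 10 measured oligodendrocyte and myelin genes, of which 5 lay below both controls and whose median was -0.37, while over all 18193 genes 0.0330% were called lower and 16.2% lay below both; Olig2 stood at -0.86 (adjusted p = 0.0872) and Mog at -0.66. The median control level of this list was 10.44, and all probe sets at levels from 10 to 11 had a median change of -0.27. The list averaged 9.66 and 9.89 on IRP1 arrays 1 and 2, against 10.34 and 10.10 on the controls. Ttc9, a protein of tetratricopeptide repeats, read 9.01 and 9.09 against 10.49 and 9.88 (log2 -1.14, adjusted p = 0.00886). Adamts4, a matrix protease, read 6.09 and 5.54 against 7.04 and 6.74 (log2 -1.07, adjusted p = 0.0418).

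Epha4, a receptor for ephrins that guides axons, fell by 1.21 on 1439757_s_at (adjusted p = 0.0218), and Pomgnt2, which builds the sugar chain of dystroglycan, by 1.34 on an x_at probe set (adjusted p = 0.0316). Below 2-fold fell Kcnt1, a sodium-activated potassium channel (-0.94), Galnt18, a glycosyltransferase (-0.91), and Rbfox3, the splicing factor known as the neuronal marker NeuN (-0.84). The strongest fall was that of the unnamed 1443237_at, from 6.65 and 6.20 in the controls to 4.83 and 4.54 (3.32-fold lower, adjusted p = 0.000106). The unnamed 1442813_at, 1459214_at, 1446805_at and 1446364_at fell by 1.44, 1.42, 1.06 and 1.00. Of the 9 genes called lower with more than 1 probe set, 0 had a second call and 8 had a probe set above -0.3. Without each brain array and under the 10 settings only Cldn11, 1459214_at and 1443237_at kept their calls. Srcin1, Ttc9 and Epha4 lost theirs without IRP1 array 1 or control array 1, Snhg11 without IRP1 array 1 or control array 2, Adamts4 and Pomgnt2 without control array 1 or IRP1 array 2, Stmn2, Rab15 and Kcnt1 in 3 of the 4 fits that left out 1 brain array, and Galnt18 and Rbfox3 in all 4.

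**Figure D4:**
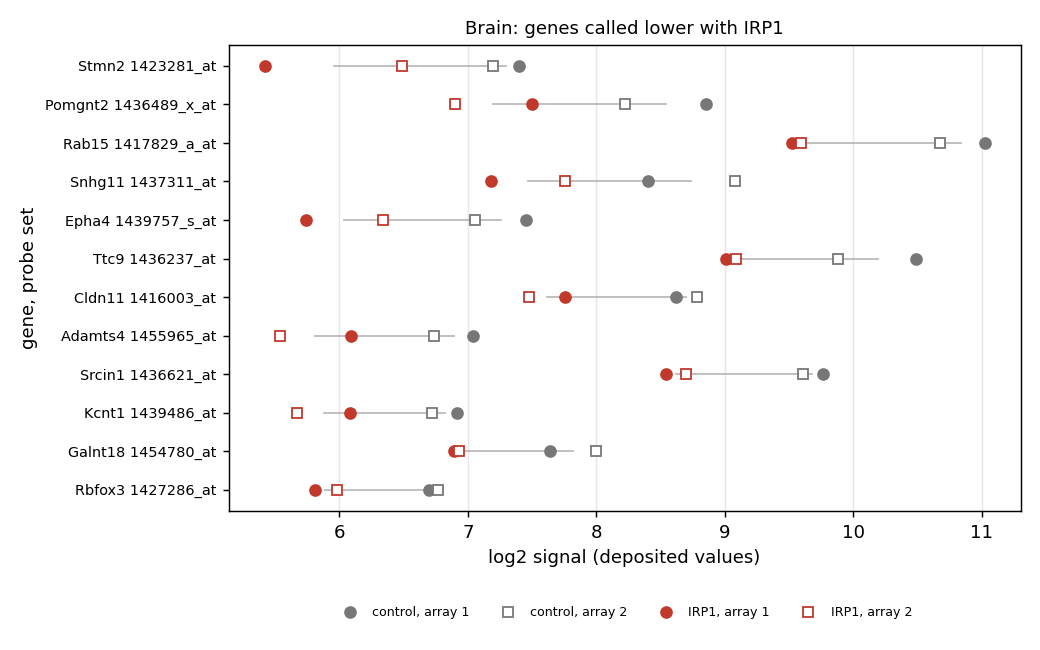
Log2 signal (x axis) of the 12 genes called lower in brain, on 2 control arrays (grey) and 2 IRP1 arrays (red), with filled circles for array 1 and open squares for array 2. Both IRP1 arrays lie to the left of both controls in every gene, by means of 0.84 (Rbfox3) to 1.34 (Stmn2 and Pomgnt2).

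Brighter probe sets drifted downward as a whole, and gene groups have to be read beside this. The median change was 0.05 for probe sets with a control level from 4 to 5, -0.14 from 7 to 8, -0.27 from 10 to 11 and -0.36 from 12 up. Astrocyte markers (7 measured, median -0.40, with Gja1 at -0.62 and Slc1a2 at -0.52), 49 cytosolic ribosomal protein genes (median -0.33) and 79 nuclear genes of the respiratory chain (median -0.34) had 0 calls each, at median control levels of 9.97, 11.22 and 10.98. IRP1 array 1 was lowest in each of these lists. Astrocyte markers averaged 9.56 and 10.16 on IRP1 arrays 1 and 2, against 10.40 and 10.17 on control arrays 1 and 2. In the same order ribosomal protein genes averaged 9.64 and 10.10 against 10.29 and 10.00. Respiratory chain genes averaged 9.85 and 10.23 against 10.52 and 10.18. The part of IRP1 array 1 in the drift was not tested. General neuron markers had a median of -0.22 with 0 calls, 12 synaptic vesicle genes -0.26 with 0, 10 GABA receptor genes -0.33 with 0 and 19 glutamate receptor genes -0.15 with 0. Microglia markers (8, median -0.17) and endothelial markers (5, median -0.12) had 0 calls too. The lists of excitatory neurons (median 0.13), ependyma (0.13) and skeletal muscle (0.11) were dimmer, with median control levels of 7.28, 5.41 and 4.55.

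The brain rises were set against the other 4 tissues, whose arrays are separate. Calls in all tissues come from the same fit, with a spread shared by the tissues for each probe set. A call elsewhere is thus not independent of the call in brain. Both IRP1 arrays lay above both controls for 32 of the 39 in duodenum, 30 in liver, 31 in spleen and 32 in bone marrow, against 16.6%, 19.2%, 17.6% and 19.0% of all probe sets there. In all 4 tissues together this held for 25 of the 39 and for 0.593% of all probe sets. The same probe sets were also called higher for 17 of the 39 in duodenum (43.6% of the brain calls and 47.2% of that tissue's), 10 in liver (25.6% and 24.4%), 15 in spleen (38.5% and 48.4%) and 21 in bone marrow (53.8% and 36.8%), where 0.0799%, 0.0910%, 0.0688% and 0.127% of all probe sets were called higher. Their median change was 1.23, 0.80, 1.40 and 1.74 in the same order. Kantr was the rise whose IRP1 arrays lay above both controls in 0 of the other tissues.

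The falls did not recur. Both IRP1 arrays lay below both controls for 5 of the 17 in duodenum, 5 in liver, 3 in spleen and 4 in bone marrow, against 21.6%, 26.0%, 22.1% and 11.8% of all probe sets, so these shares are near the background. Of the 17, 0 were called lower there, where 0.0244%, 0.0933%, 0.0333% and 0.00444% of all were, and 0 lay below both controls in all 4 tissues, as did 0.266% of all. All 17 had a brain control mean above every control array of the other tissues, as did 16.7% of all probe sets, and for 11 of the 17 all 8 control arrays elsewhere lay below 5, as for 27.4% of all. Cldn11, for example, averaged 3.31 to 3.40 in the other tissues' controls against 8.70 in brain. Levels that low leave little room to fall, and the part of this in the missing falls was not tested.

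The difference between the brain change and the mean change of the other 4 tissues was tested for each probe set in the same model; it shares the brain arrays with the changes above. It was called more positive in brain for 4 probe sets (0.00888%) and more negative for 6 (0.0133%), against 1.21% and 1.81% at an unadjusted p under 0.05. Dlg2 stood at 3.33 in brain against 0.32, -0.14, 1.02 and 0.77 in duodenum, liver, spleen and bone marrow, a difference of 2.83 (SE 0.42, adjusted p = 0.025). The control mean of Dlg2 was 4.12 in brain and 3.50 to 3.84 elsewhere, and with a floor at log2 5 its difference was 2.35. Its other probe sets, both brighter in the brain controls, differed by 0.49 and 0.64 without a call. Ppp1r1b rose in duodenum as well (2.41) and stood at 0.21 to 0.28 in the other 3 tissues, a difference of 2.43 (SE 0.31, adjusted p = 0.01). Its control mean was 8.46 in brain, 8.70 in duodenum and 6.12 to 6.83 in those 3. Lnx1 showed the same layout, with 2.20 in brain, 2.11 in duodenum and -0.19 to 0.03 elsewhere (difference 1.74, SE 0.23, adjusted p = 0.01). Its control mean was 4.61 in brain, 5.17 in duodenum and 3.72 to 3.93 elsewhere. The brighter Lnx1 probe set 1455825_s_at differed by 0.69 without a call. Avp stood at -0.19 to 0.24 in the other tissues (difference 1.11, SE 0.17, adjusted p = 0.025). The control mean of Avp was 4.75 in brain and 4.69 to 4.99 elsewhere. Kcnf1, the bright brain rise, had 2.55 in duodenum, 0.13 in liver, 1.05 in spleen and 2.75 in bone marrow, and its difference of 1.44 was not called (adjusted p = 0.281). The control mean of Kcnf1 was 8.67 in brain and 3.45 to 4.17 elsewhere. The part of such control levels in these differences was not tested.

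Pfn2, an actin-binding profilin abundant in brain, lay on the other side. Its probe set 1418209_a_at read 13.32 and 13.74 against 13.38 and 13.15 in brain (log2 0.27, adjusted p = 0.924), so that the reactions overlapped, while the changes elsewhere were 2.84, 2.40, 2.95 and 3.61 in duodenum, liver, spleen and bone marrow. The difference was -2.68 (SE 0.38, adjusted p = 0.0224). Control means elsewhere were 5.61 to 7.83, far below the 13.26 of brain. A second Pfn2 probe set, 1418210_at, did separate the reactions in brain, at 13.31 and 13.52 against 12.20 and 12.50 (log2 1.06, adjusted p = 0.577), and 1436993_x_at stood at 0.21. The dim Tfrc probe set 1422967_a_at differed too, by -1.57 (SE 0.20, adjusted p = 0.01), with 0.72 in brain and 1.25 to 3.95 elsewhere, whereas 1422966_a_at of the same gene differed by 0.05 (SE 0.31). Cldn11 and Srcin1, each with a difference of -1.11, and the unnamed 1443237_at and 1459214_at (-1.58 and -1.41) completed the negative side. Of the 10 differences, Ppp1r1b and 1443237_at kept their calls without IRP1 array 1, Dlg2 and Cldn11 lost theirs without IRP1 array 2, and Cldn11 without control array 2. Without control array 1, 0 differences were called in either direction by limma (585 and 962 at an unadjusted p under 0.05, smallest adjusted p = 0.0512).

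**Figure D5:**
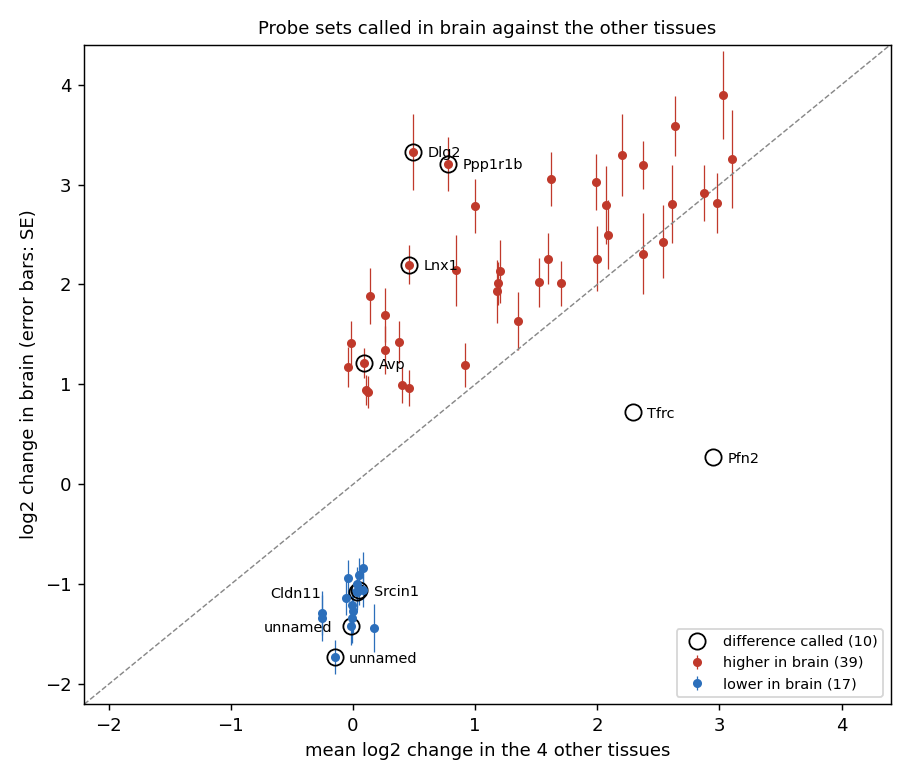
Mean log2 change in the 4 other tissues (x axis) against the log2 change in brain (y axis, error bars are SE) for the 39 probe sets called higher (red) and 17 called lower (blue) in brain; open circles mark the 10 probe sets with a called difference, and the dashed line marks equal change. Most rises lie to the right of 0, the falls cluster at 0 on the x axis, and Pfn2 and the dim Tfrc probe set lie below the line.

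Sequence was available for the start-site windows of genes in RefSeq (assembly GRCm38.p6), each with 250 bases before and 50 bases from the annotated start of transcription. The search was for an unpaired C, then 5 bases, the loop CAGTGN and 5 bases that pair with the first 5, with at most 1 position unpaired and G-T pairs allowed. Such a run was found in 0.816% of 32851 windows on the gene's strand and in 0.746% on the other strand. Of the 28 genes called higher 19 had a window, and 1 of these held the run. It is shown because it was the only one, with the loop in capitals. It comes from chr7:133782771-133782797 on the minus strand, where the unpaired C stands at -7 from the start site. That C and the first 5 bases after it thus lie before the annotated start of transcription, outside the annotated transcript.
Dhx32: tttccctggccCAGTGAggccaaggac
Dhx32 encodes a protein related to RNA helicases. Its probe set 1438013_x_at read 7.33 and 7.35 with IRP1 and 6.35 and 5.96 in the controls (2.28-fold, log2 1.19, SE 0.22, adjusted p = 0.0426), and its other probe set stood at -0.17. The match describes letters in this window and not a binding site. Of the 7 genes called lower with a window 0 held the run, and the windows of Fth1, Ftl1 and Alas2, which reach only 50 bases into the transcript, held none.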

How the data were processed

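The deposited values are log2 signals per probe set of the Affymetrix Mouse430_2 array, which the authors computed by RMA or by MAS5 in GCOS followed by quantile normalization, per the series' design text; which of them made the table is not stated. Fold changes near the floor and the top of this scale are compressed. No further normalization was applied. Probe sets were named through the platform annotation: of 45037, 34945 had 1 gene symbol (18193 genes), 932 several and 9160 none.

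Limma 3.58.1 in R 4.3.3 was fitted to all 20 arrays with 10 groups (residual degrees of freedom 10, prior 6.14), and p-values were adjusted by Benjamini and Hochberg's method over all 45037 probe sets. The number of arrays limits the precision, and the depth of an array is not a count. Tested on simulated data, the brain comparison found 100% of 50 changes of log2 2, 44.0% of 50 of log2 1 and 2.00% of 50 of log2 0.5, with 8 false calls, so changes of log2 1 or less were mostly missed there. The simulated noise was normal and independent between arrays and probe sets, with the fitted spread and no array-wide differences. These rates and false calls therefore do not give the error of the real calls. Named genes were those called at least 2-fold without overlap between reactions (at most 25 rises and 10 falls), uncalled genes past 2-fold as values only, all IRE list genes, up to 5 of each other list, and called differences; Lzic, Ano8, Ccdc177, Thsd7b, Kcnt1, Galnt18, Rbfox3, Dhx32's sequence and the unnamed probe sets were added after their values were seen. In lists, the brightest probe set over the brain arrays represents a gene. The members and the 40 lists were chosen with earlier results of these data known. Alternatives were other scalings, a filter, a floor, covariates, a replicate block, other priors and weights, fewer arrays and, chosen after seeing the data, the poly-A control level as a covariate. Replicate numbers carry no stated pairing. Sequences are from RefSeq, and the search used Python 3.11.15.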

Additional observations from a re-analysis of the deposited data

Results flagged for a closer look

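In 10 probe sets the effect of IRP1 in brain differed from its mean effect in the other 4 tissues by a test of the difference itself (limma, adjusted p under 0.05). On the positive side these were Dlg2 (2.83), Ppp1r1b (2.43), Lnx1 (1.74) and Avp (1.11). On the negative side they were Cldn11 (-1.11), Srcin1 (-1.11), 1459214_at (-1.41), the dim Tfrc probe set 1422967_a_at (-1.57), 1443237_at (-1.58) and Pfn2 (-2.68). Each is a result of a single probe set, and other probe sets of these genes were not called. Those of Dlg2 differed by 0.49 and 0.64, and that of Lnx1 by 0.69. Those of Pfn2 differed by -2.12 and -1.54, that of Srcin1 by 0.04 and those of Tfrc by 0.05 and 1.04. Duodenum shared the rise of Ppp1r1b (2.41) and Lnx1 (2.11). Diet cannot be told apart from tissue in duodenum, liver and spleen.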

How the results depend on the processing

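Counts of probe sets higher and lower in brain (39 and 17) and of differences more positive and more negative than elsewhere (4 and 6) moved by over 1.5 times as follows. Quantile normalization gave 70 higher and 9 positive differences, and a floor at log2 5 gave 82 higher, 208 lower, 66 positive and 163 negative. The array standard deviation as a covariate gave 80 higher and 7 positive. A trended and robust prior gave 28 lower, 8 positive and 15 negative, and array weights 11 lower and 3 negative. Without the 3 arrays with low hybridization controls there were 2 positive and 2 negative differences. The brain arrays alone gave 0 higher and 0 lower (718 and 932 at an unadjusted p under 0.05). Median centring, the filter on dim probe sets and the added poly-A covariate moved no count that far (34 to 44 higher, 12 to 17 lower). The cause was not tested. Leaving out each brain array gave 25 to 52 higher, 11 to 118 lower, 0 to 11 positive and 0 to 44 negative.

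With the replicate number as a block there were 46 higher, 11 lower, 3 positive and 1 negative. Of the differences, Dlg2, Ppp1r1b, Lnx1 and 1443237_at were called there, while Tfrc (1422967_a_at) and Pfn2 (both adjusted p = 0.0575), 1459214_at (0.122), Avp (0.146), Cldn11 and Srcin1 (both 0.162) were not. The numbers share no stated pairing; deviations of same-numbered arrays correlated at 0.12 in brain and from -0.07 to 0.53 in the other tissues. No called probe set changed sign, and 31 of the 39 rises and 8 of the 17 falls lost no call under the 10 settings other than the brain arrays alone. These counts include Avp and 1442813_at, which the filter removed, so that setting did not test them. Uncalled genes near 0 turned. Under quantile normalization Slc11a2 (1417584_at) stood at 0.02, Prnp at 0.03, App at 0.10, Ndufs1 at 0.05 and Bdh2 at -0.01. With the standard deviation as a covariate Prnp stood at 0.00, App at 0.06 and Ndufs1 at 0.10. Without each brain array in turn, Slc11a2 (1417584_at) ranged from -0.36 to 0.14, Cdc14a from -0.12 to 0.27, Prnp from -0.68 to 0.07, App from -0.44 to 0.04, Ndufs1 from -0.45 to 0.08 and Bdh2 from -0.18 to 0.26. With 2 arrays per reaction and signals compressed at both ends, calls of single probe sets of small change are the least firm.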

Other observations

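Mitochondrial protein import genes were not described above: of 24 measured, 0 were called, 2 lay above both controls and 4 below, and the median was -0.10. Tomm40, the pore of the outer membrane, stood apart by its values, at 8.64 and 7.65 with IRP1 and 6.66 and 6.74 in the controls (log2 1.44, adjusted p = 0.411 by limma). Of 7 listed long noncoding RNAs, taken by their brightest probe sets, 0 were called, with Malat1 at -0.71 and Meg3 at -0.44. The called probe sets of Kantr and Snhg11 given above are not counted here. In this list 4 (57.1%) lay below both controls, against 16.2% of all genes, and the median was -0.44. Its median control level was 11.54, and all probe sets at levels from 11 to 12 had a median change of -0.32. Atl3, which shapes the endoplasmic reticulum, read 8.05 and 8.09 against 6.66 and 6.59 (log2 1.44, adjusted p = 0.0809). Dmrtc1a was high on 1 array, at 8.58 and 6.06 with IRP1 against 5.85 and 5.90. Inhibitory neuron markers ran from -0.47 (Slc32a1) to 0.12, and cerebellar markers from -0.41 (Gabra6) to -0.04, with 0 calls among 7 and 6 genes.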
